A study of Mus musculus with 20 samples.

Results

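The transcripts described here are those of the autophagy and lysosome machinery, 38 genes taken by symbol from a list that runs from the ULK1 kinase complex to the lysosome. Each of the 38 symbols matched 1 row in every library, out of 25052 genes in the tables. The libraries hold poly(A) RNA of frozen left ventricle, 1 library per male mouse, 20 in all, with 5 mice in each of 4 groups and reads of 100 nt. The groups were ACC2 f/f-MerCreMer+ mice (iKO) on a high-fat diet (HFD), ACC2 f/f littermates without the Cre (labelled WT) on HFD, iKO on chow and WT on chow. MerCreMer is a Cre recombinase that tamoxifen activates, and ACC2, encoded by Acacb, makes the malonyl-CoA that holds back fatty acid entry into mitochondria. Tamoxifen (20 mg/kg) was given to both genotypes on 5 days, when the mice were 8 weeks old. The diets began 4 weeks later and lasted 16 weeks. Both genotypes carried the floxed alleles. The labels name neither the promoter that drives MerCreMer nor a group with the Cre and without the floxed alleles, so that loss of ACC2 and presence of the Cre cannot be told apart.

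In macroautophagy, a kinase complex built around ULK1 and a class III phosphatidylinositol 3-kinase complex built around Beclin 1 start a cup of membrane that closes around cytoplasm. Conjugation enzymes attach LC3 and GABARAP proteins to this membrane, and the closed autophagosome fuses with a lysosome, where cathepsins degrade its content. In heart muscle the pathway clears worn proteins and mitochondria, and the transcription factor TFEB binds E-box motifs before many autophagy and lysosome genes.

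Values are FPKM (fragments per kilobase of transcript, scaled to the size of the library), which allow levels of different genes to be set side by side. A gene is called changed here when its adjusted p from limma, fitted to log2(FPKM + 1) of all 20 libraries and adjusted by Benjamini-Hochberg over 12775 tested genes, was under 0.05. Acacb lay between 9.05 and 11.9 FPKM in iKO on HFD, against 34.9 to 41.9 in WT on HFD, and between 8.37 and 9.46 in iKO on chow, against 37.4 to 41.1 in WT on chow. Atrial transcripts stood out in WT chow library RT1, with 145 FPKM of the atrial light chain Myl7, and in iKO chow library RT4, with 30.8 FPKM, against at most 2.88 in the other libraries. An estimate of depth from the spacing of low values gave between 12.5 M and 31.2 M assigned reads per library. By group it was 20.2 M to 28.6 M in iKO on HFD, 23.6 M to 31.2 M in WT on HFD, 12.5 M to 23.8 M in iKO on chow and 19.2 M to 22.4 M in WT on chow. In WT the ranges on HFD and chow did not overlap, so that depth and diet cannot be told apart there. Every library numbered RT1 to RT10 came from a mouse on chow and every one from RT11 to RT20 from a mouse on HFD, so that diet and library number cannot be told apart.

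All 38 genes of the machinery were detected at 0.5 FPKM or more in every library, and all were tested. Cathepsin D (Ctsd), the main aspartic protease of the lysosome, had the highest mean over the 20 libraries, 415 FPKM. Map1lc3a, an LC3 gene, followed with 333 FPKM and Lamp1, a glycoprotein of the lysosomal membrane, with 175 FPKM. The lowest were Atg4c with 1.61 FPKM, Atg2b with 2.40 and Atg14 with 3.48. Levels therefore differed far more between genes than between mice: the coefficient of variation over all libraries ran from 4.96% for Ulk2 to 17.02% for Atg4b. Within groups the genes of the machinery had a median residual SD of 0.093 on the log2 scale, against 0.122 for all genes tested.

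**Figure D1:**
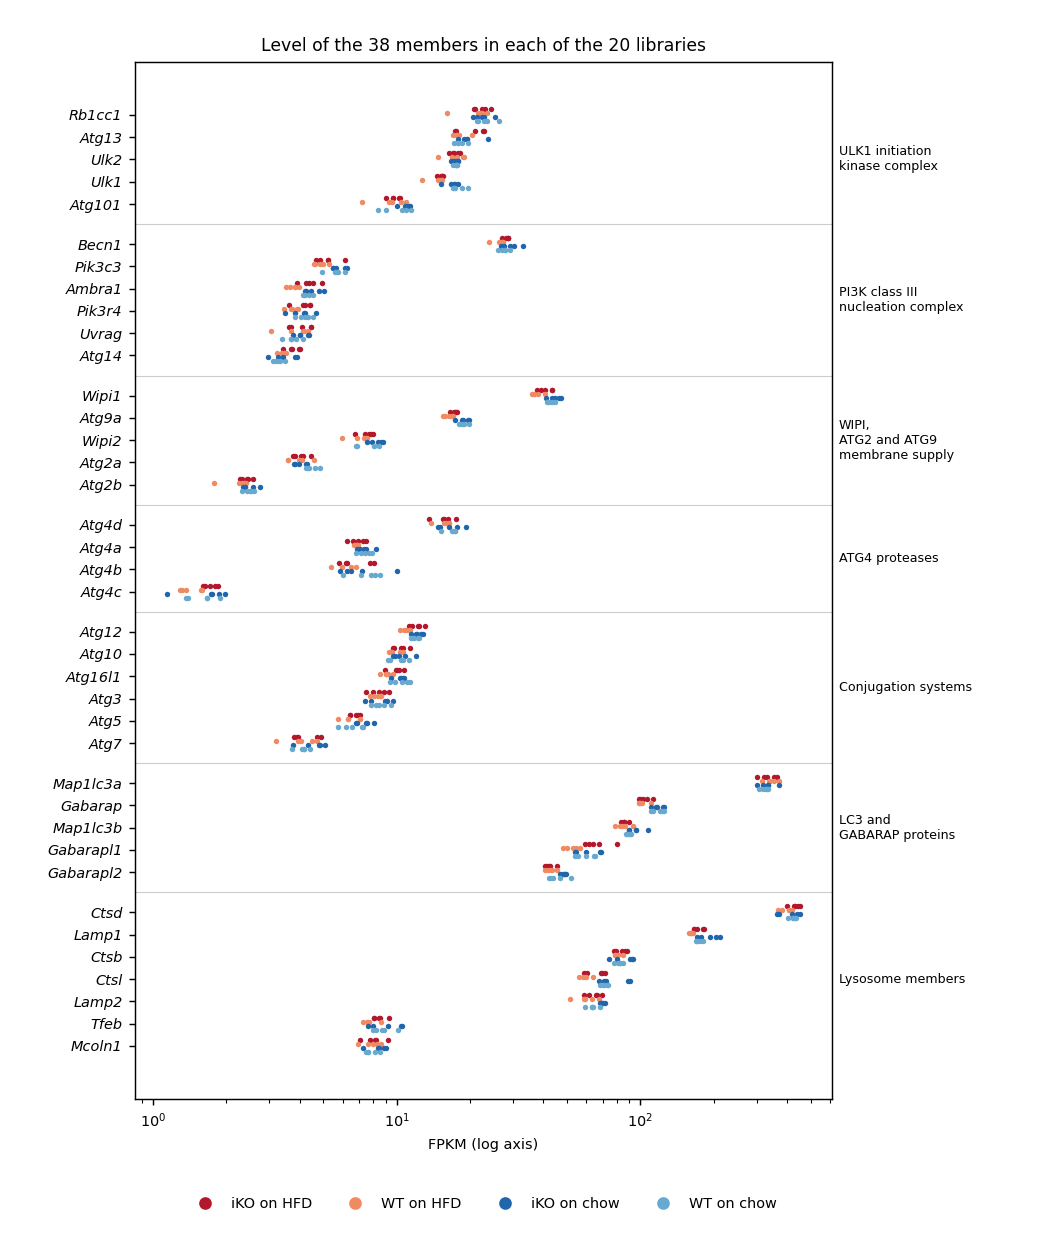
FPKM of each of the 38 genes in each of the 20 libraries on a log axis, grouped by role, with 1 point per mouse and the 4 groups offset from top to bottom as iKO on HFD, WT on HFD, iKO on chow and WT on chow. The genes span mean levels from 1.61 FPKM for Atg4c to 415 FPKM for Ctsd, while the points of each gene stay close together.

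Among the 5 genes of the initiation complex, levels lay close together. Rb1cc1, which encodes the scaffold FIP200, averaged 22.3 FPKM over the 20 libraries, the adaptor Atg13 19.1 FPKM, the kinases Ulk2 and Ulk1 17.4 and 16.2 FPKM, and Atg101, a partner of ATG13, 10.1 FPKM. In the nucleation complex, Becn1 (Beclin 1) averaged 27.9 FPKM, far above the lipid kinase Pik3c3 with 5.38, its regulatory subunit Pik3r4 with 4.04 and the alternative subunits Uvrag with 3.94 and Atg14 with 3.48. Ambra1, a regulator of Beclin 1, averaged 4.24 FPKM.

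Of the genes grouped here under membrane supply, Wipi1, a reader of phosphatidylinositol 3-phosphate, averaged 41.5 FPKM and its relative Wipi2 7.63 FPKM. Atg9a, a scramblase carried in vesicles, averaged 17.8 FPKM, and the lipid transfer proteins Atg2a and Atg2b 4.12 and 2.40 FPKM. Among the ATG4 proteases, which trim LC3 and GABARAP, Atg4d stood highest with 16.2 FPKM, ahead of Atg4a with 7.14, Atg4b with 6.92 and Atg4c with 1.61. Exons of Atg4d share 1405 bases with Kri1 on the opposite strand, which was at 2.28 to 3.94 FPKM, and reads of the pair cannot be told apart where the counting did not use strand. The conjugation genes lay in a narrow band, from Atg7, the activating enzyme, with 4.25 FPKM to Atg12, a ubiquitin-like protein, with 11.8 FPKM.

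The LC3 and GABARAP genes were expressed well above the enzymes that act on their products. Gabarap averaged 111 FPKM, Map1lc3b 89.0, Gabarapl1 59.9 and Gabarapl2 44.8, beside the 333 FPKM of Map1lc3a. These genes are close relatives, and reads that fit several of them or their processed copies may have been shared out in counting. Among the lysosome genes, the cathepsins B (Ctsb) and L (Ctsl) averaged 82.9 and 68.6 FPKM and Lamp2 64.5 FPKM. The same limit holds for Ctsb, which shares 774 exon bases with Fdft1 on the opposite strand, at 9.42 to 13.06 FPKM, and for Becn1, which shares 3104 with Cntd1, at 0 to 0.23 FPKM. Tfeb averaged 8.55 FPKM and Mcoln1, the calcium channel of the lysosomal membrane, 8.07 FPKM.

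Promoters of the RefSeq table (GRCm38.p6, 250 bases before to 50 bases after the start) were at hand for 31 of the 38 genes, as 35 promoters. The E-box CACGTG, which reads the same on both strands, occurred in 8 of them, 22.9%, against 7.15% of all 32851 promoters in the table. These were the promoters of Atg14, Atg3, Atg5, Atg7, Ctsd, Ctsl, Lamp1 and Mcoln1. The longer form TCACGTGA, which contains the shorter one, occurred in those of Atg3, Ctsd and Mcoln1, 8.57% against 0.974% of all promoters. The forkhead motif TGTTTAC or its reverse was in none of the 35 promoters, against 3.65% of all promoters. A match describes the letters of these windows and not a bound site. The stretches before Lamp1 (chr8:13159076-13159160, plus strand, ending 1 base before the start) and in the promoter window of Ctsd (chr7:142388043-142388077, minus strand) are shown because they hold the motif of the factor that is itself on the list, outside annotated exons. Capitals mark CACGTG, which occurs 4 times in the Lamp1 stretch.

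Lamp1: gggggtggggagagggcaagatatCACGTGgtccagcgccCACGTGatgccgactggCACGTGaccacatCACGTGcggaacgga

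Ctsd: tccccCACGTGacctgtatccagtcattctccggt

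Whether loss of ACC2 altered these transcripts in mice on a fatty diet was read from iKO against WT, both on HFD. None of the 38 genes was called, against 0.172% of all genes tested (0.102% higher and 0.0705% lower in iKO). Most fold changes were small and above 0: 35 of the 38 genes were higher in iKO in the fit, with a median log2 fold change of 0.083, against 0.063 for all genes tested. Under median-of-ratios scaling, which removes that shift of all genes, 21 of the 38 were above 0. At an unadjusted p under 0.05 there were 7 of the 38 genes, against 15.2% of all genes.

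Gabarapl1, a GABARAP family member that joins the autophagosome membrane, had the smallest p of the 38 in this comparison (chromosome 6, 129533160 to 129542346 on GRCm38). Its values in iKO on HFD were 64.2, 80.0, 59.5, 67.9 and 61.4 FPKM in RT11, RT13, RT15, RT17 and RT20, against 50.0, 52.7, 47.9, 54.2 and 56.4 FPKM in WT on HFD in RT12, RT14, RT16, RT18 and RT19. The lowest iKO mouse lay above the highest WT mouse, so that the groups did not overlap, and RT13 stood highest. On chow the same gene averaged 61.1 FPKM ± 7.27 in iKO and 59.8 ± 4.92 in WT (SD, n = 5 each), with overlapping groups. The log2 fold change on HFD was 0.34 (SE 0.08), with an adjusted p from limma of 0.110, which ranged from 0.0352 with array quality weights to 0.2697 over the alternatives. On HFD it was higher in 5 of 5 iKO mice than in any WT mouse on that diet, but did not pass the threshold in the fit as described.

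Lamp1 and Atg4c also did not overlap between the genotypes on HFD. Together with Gabarapl1 these were 3 genes higher in iKO without overlap, against 2.79% of all genes tested, and none was lower without overlap, against 0.446%. Lamp1 was 166.16, 171.37, 180.28, 182.77 and 166.19 FPKM in iKO on HFD, against 161.45, 157.88, 159.90, 164.17 and 162.50 FPKM in WT on HFD. Atg4c lay between 1.61 and 1.85 FPKM in iKO on HFD, against 1.29 to 1.59 FPKM in WT on HFD. Neither passed the test, with log2 fold changes of 0.10 and 0.17. The 95% intervals of the 38 fold changes on HFD reached at most from -0.16 to 0.51 on the log2 scale.

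On chow, iKO against WT addressed loss of ACC2 without a change of diet. None of the 38 genes was called, against 1.06% of all genes tested (0.344% higher and 0.72% lower in iKO), and 4 had an unadjusted p under 0.05, against 13.5% of all genes. The fold changes were above 0 for 28 of the 38, with a median of 0.049 on the log2 scale, against 0.050 for all genes tested. Under median-of-ratios scaling 17 of the 38 were above 0.

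Lamp1 had the smallest p on chow. Its values in iKO on chow were 204, 211, 178, 193 and 170 FPKM in RT2, RT4, RT6, RT7 and RT9, against 181, 175, 171, 171 and 170 FPKM in WT on chow in RT1, RT3, RT5, RT8 and RT10. RT2, RT4 and RT7 lay above every WT mouse, while RT6 and RT9 lay within the WT range. The log2 fold change was 0.13 (SE 0.05, adjusted p from limma 0.230). RT2, RT4 and RT7 also had the highest summed levels of 9 macrophage markers in this group, 246, 261 and 229 FPKM, against 168 FPKM each in RT6 and RT9 and 170 to 195 FPKM in WT on chow. Their part in the result was not tested.

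Lamp2, whose product takes part in the fusion of autophagosomes with lysosomes, was the 1 gene of the machinery higher in iKO on chow without overlap, against 2.07% of all genes tested, and none was lower without overlap, against 1.11%. It lay between 68.3 and 71.8 FPKM in iKO on chow, against 59.5 to 68.0 FPKM in WT on chow. The iKO mice were more alike than the WT mice, with an SD of 1.38 against 3.04. Its log2 fold change was 0.13 (SE 0.06, adjusted p from limma 0.319). The 95% intervals of the 38 genes on chow reached from -0.31 to 0.29.

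Averaged over both diets, 1 gene was called between the genotypes, Lamp1, which was higher in iKO, against 5.17% of all genes tested (4.01% higher and 1.16% lower). Its log2 fold change was 0.12 (SE 0.03, adjusted p from limma 0.0486). The call held in 5 of the 20 fits that left out 1 library, those without RT1, RT6, RT9, RT11 or RT20, with an adjusted p of at most 0.0966 in the others. The adjusted p was 0.0814 without both libraries that held atrial transcripts, RT1 and RT4. Under median-of-ratios scaling the fold change was 0.05, with an adjusted p of 0.410. The iKO mice also differed among themselves in the summed level of 8 fibroblast markers. Of these, 1 was called higher in iKO averaged over both diets, and Dcn, at 241 to 545 FPKM, gave the largest part of the sum. On HFD this sum was 333, 583, 543, 634 and 319 FPKM in RT11, RT13, RT15, RT17 and RT20, where Lamp1 was 166, 171, 180, 183 and 166 FPKM. In WT on HFD the sum was 335 to 368 FPKM, so that RT11 and RT20 lay below every WT mouse on that diet. On chow the sum was 595, 735, 377, 434 and 399 FPKM in RT2, RT4, RT6, RT7 and RT9, the mice whose Lamp1 is given above. In WT on chow it was 335 to 406 FPKM, a range that holds RT6 and RT9. The mice with the highest sums, RT17 on HFD and RT4 on chow, also had the most Lamp1 of their groups. The order of the other mice was not the same for both. RT13 had a higher sum than RT15 and less Lamp1, and RT9 a higher sum than RT6 and less Lamp1. The part of these sums in the result was not tested.

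**Figure D2:**
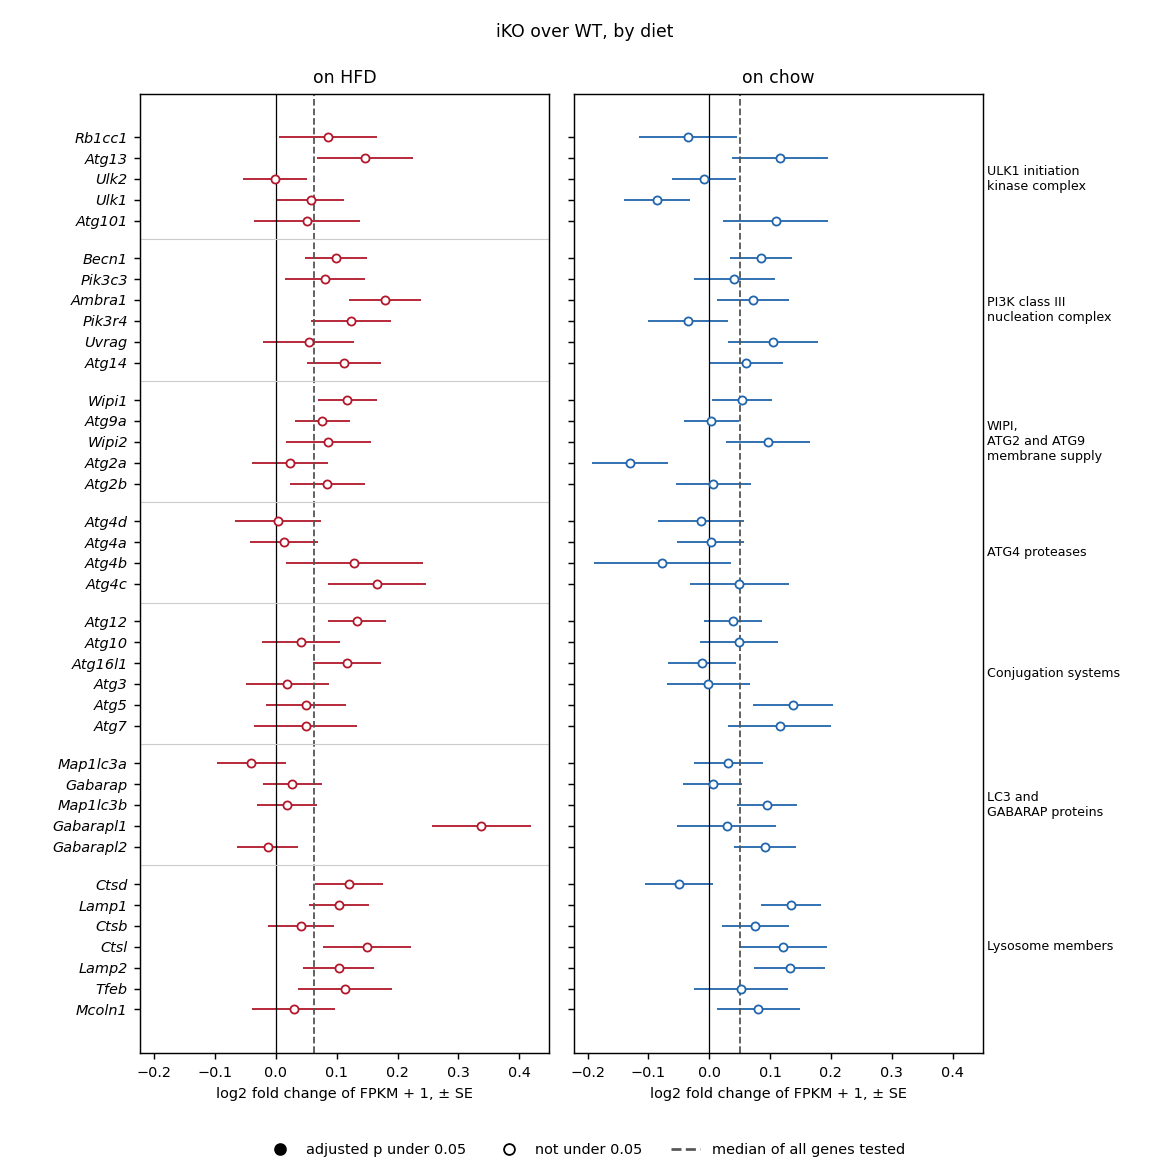
Log2 fold change of FPKM + 1, iKO over WT, for the 38 genes on HFD (left) and on chow (right), as points with bars of ± SE, with a dashed line at the median of all genes tested. All points are open because no gene of the machinery had an adjusted p under 0.05 on either diet, and Gabarapl1 on HFD lies farthest from 0 at 0.34.

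The genotype effect on HFD was set against that on chow gene by gene. No gene of the machinery was called for this interaction, against 0.0313% of all genes tested, and 2 had an unadjusted p under 0.05, Gabarapl1 and Ctsd, against 3.76% of all genes. Gabarapl1 had the smallest p, with a difference of 0.31 on the log2 scale (SE 0.11, adjusted p from limma 0.999). Ctsd averaged 430 FPKM ± 20.3 in iKO on HFD, 396 ± 21.1 in WT on HFD, 410 ± 40.1 in iKO on chow and 422 ± 12.7 in WT on chow (SD, n = 5 each). Its difference was 0.17 (SE 0.08).

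The comparison of HFD with chow asked what 16 weeks of the fatty diet did to the machinery. Averaged over both genotypes, 10 of the 38 genes fell and none rose, 26.3% of them, against 25.8% of all genes tested, of which 23.3% were lower and 2.55% higher. Those that fell were Ulk1 of the initiation complex, Pik3c3 of the nucleation complex, Wipi1 and Atg9a, Atg16l1 of the conjugation system, Gabarap, Gabarapl2 and Map1lc3b, and Lamp1 and Ctsl of the lysosome. The share of called genes and the median log2 fold change, -0.073 against -0.079 for all genes tested, were thus both close to those of the whole transcriptome.

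In WT, 5 of the 38 genes fell on HFD, Ulk1, Gabarap, Atg9a, Wipi1 and Ctsl, and none rose, 13.2% against 8.04% of all genes tested (7.27% lower and 0.767% higher). In iKO, 3 fell, Gabarap, Gabarapl2 and Ctsl, and none rose, 7.89% against 10% of all genes tested (8.36% lower and 1.65% higher). Gabarap and Ctsl were in both lists. Whether a gene fell more in one genotype than in the other is the interaction above, for which none was called. The median log2 fold change of the 38 genes was -0.052 in iKO, against -0.072 for all genes tested, and -0.096 in WT, against -0.084 for all genes tested. In WT, 8 genes were lower on HFD without overlap, the 5 called ones with Ambra1, Atg12 and Lamp1, against 9.99% of all genes tested, and none was higher without overlap, against 0.783%. In iKO 1 gene was lower without overlap, Gabarapl2, against 6.41%, and none was higher, against 1.39%.

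**Figure D3:**
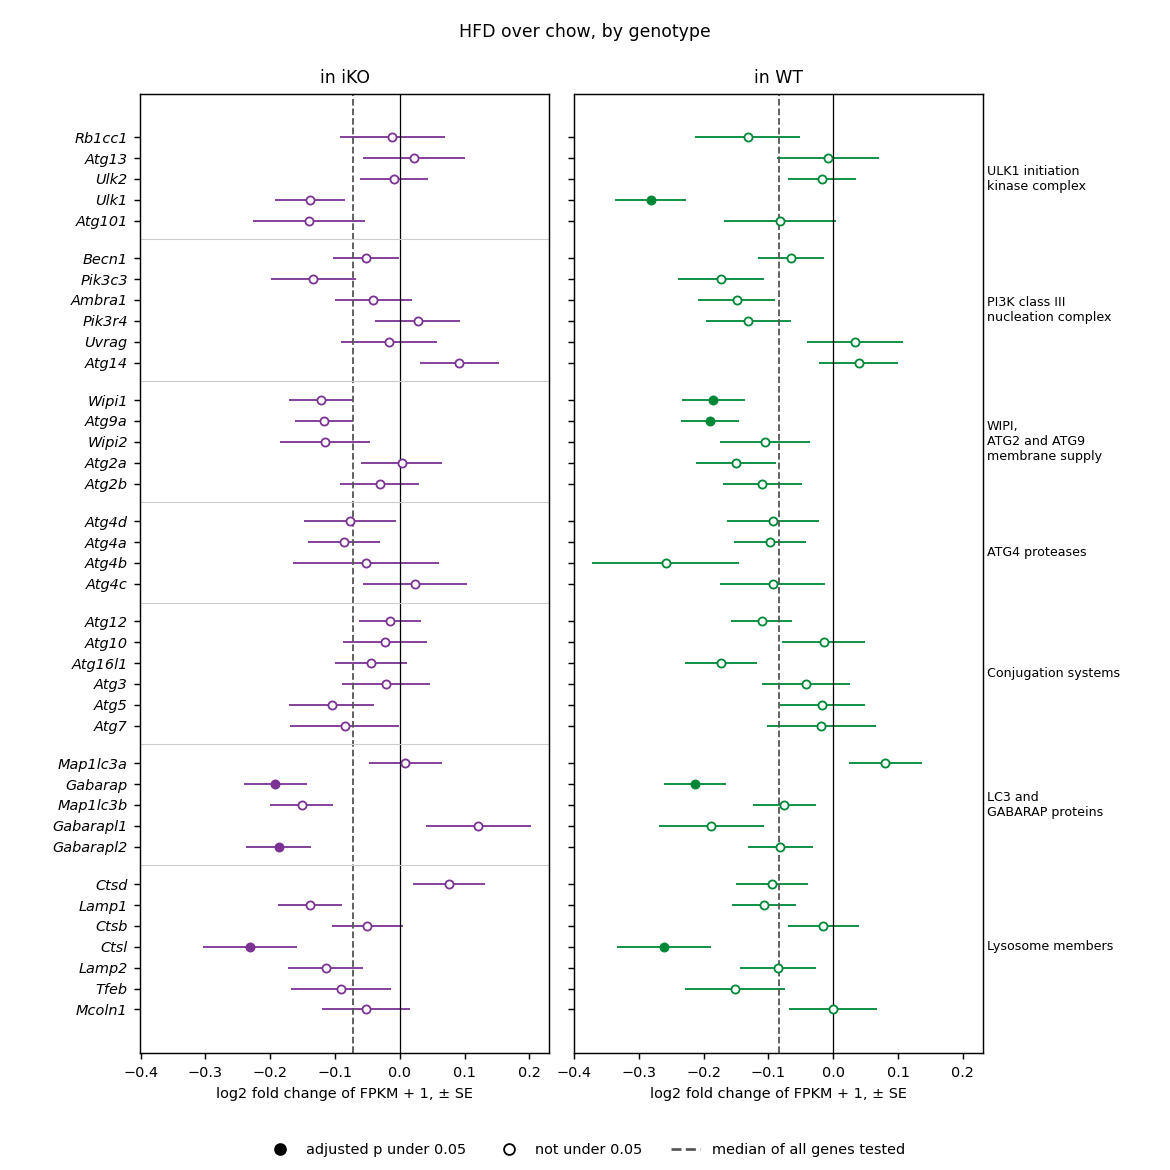
Log2 fold change of FPKM + 1, HFD over chow, for the 38 genes in iKO (left) and in WT (right), with bars of ± SE and a dashed line at the median of all genes tested. Filled points mark an adjusted p under 0.05: 3 genes in iKO and 5 in WT, all to the left of 0.

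Ulk1, the kinase that starts autophagosome formation (chromosome 5, 110784488 to 110810097 on GRCm38), had the largest fall of the machinery in WT. Its values in WT on HFD were 14.7, 14.97, 15.2, 15.3 and 12.8 FPKM in RT12, RT14, RT16, RT18 and RT19, against 18.6, 19.6, 17.1, 17.3 and 17.2 FPKM in WT on chow in RT1, RT3, RT5, RT8 and RT10. All WT mice on HFD lay below all WT mice on chow, and RT19 was the lowest. In WT it fell by 0.28 on the log2 scale (SE 0.05, adjusted p from limma 0.0035), and the call held in each of the 20 fits without 1 library. Under median-of-ratios scaling it fell by 0.18 (adjusted p 0.0439), and under upper-quartile scaling the call was lost (-0.17, adjusted p 0.0598).

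In iKO, Ulk1 was 15.2, 15.3, 14.7, 15.5 and 15.4 FPKM on HFD in RT11, RT13, RT15, RT17 and RT20, against 17.8, 17.4, 16.8, 17.2 and 15.1 FPKM on chow in RT2, RT4, RT6, RT7 and RT9. The iKO groups overlapped only through RT9, which lay among the mice on HFD. The log2 fold change in iKO was -0.14 (SE 0.05) and did not pass the test (adjusted p 0.111). Averaged over both genotypes, Ulk1 fell by 0.21 (SE 0.04, adjusted p 0.000507). The other kinase gene, Ulk2, averaged 17.3 FPKM ± 0.738 in iKO on HFD, 17.4 ± 1.64 in WT on HFD, 17.4 ± 0.459 in iKO on chow and 17.5 ± 0.277 in WT on chow (SD, n = 5 each). The bulk tissue does not show whether fewer cells of a type or less RNA per cell lies behind such a difference, and the 2 cannot be told apart.

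In the nucleation complex Pik3c3, the lipid kinase itself, fell by 0.15 averaged over both genotypes (SE 0.05, adjusted p from limma 0.0198). It averaged 5.22 FPKM ± 0.570 in iKO on HFD, 4.87 ± 0.288 in WT on HFD, 5.81 ± 0.380 in iKO on chow and 5.62 ± 0.438 in WT on chow (SD, n = 5 each). By mouse the values were 4.83, 5.22, 5.24, 6.14 and 4.67 FPKM in iKO on HFD, against 6.16, 6.27, 5.47, 5.49 and 5.65 FPKM in iKO on chow. They were 4.84, 5.30, 4.58, 4.97 and 4.64 FPKM in WT on HFD, against 6.12, 5.71, 5.76, 5.59 and 4.92 FPKM in WT on chow. HFD and chow overlapped in iKO through RT17 and in WT through RT10. Without RT1 and RT4 its adjusted p was 0.0725. Atg14, the subunit that directs the kinase to the autophagosome, went the other way in the fit, with 0.07 (SE 0.04, adjusted p 0.268), and passed the test only after rescaling, as given further on. Becn1 did not pass the test in any comparison as described, with -0.06 for the diet averaged over both genotypes (SE 0.04).

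Wipi1 and Atg9a, grouped here under membrane supply, both fell. Wipi1 in WT was 40.6, 36.7, 36.5, 36.1 and 38.02 FPKM on HFD, against 43.5, 41.5, 42.6, 44.6 and 41.9 FPKM on chow, in the mouse order used for Ulk1. The highest WT mouse on HFD, RT12, stayed below the lowest on chow. In WT the gene fell by 0.18 (SE 0.05, adjusted p from limma 0.0236), a call that was lost without RT1, RT8, RT14 or RT18 (adjusted p up to 0.0566) and under both rescalings (-0.08 with an adjusted p of 0.482 for median-of-ratios). In iKO it was 37.6, 43.5, 40.5, 39.3 and 43.5 FPKM on HFD, against 46.4, 47.4, 44.5, 43.4 and 41.0 FPKM on chow. These groups overlapped, and the log2 fold change of -0.12 had an adjusted p of 0.120. Averaged over both genotypes Wipi1 fell by 0.15 (SE 0.03, adjusted p 0.00298).

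Atg9a in WT was 17.02, 15.8, 16.8, 16.5 and 15.6 FPKM on HFD, against 18.7, 18.9, 18.4, 17.97 and 19.8 FPKM on chow, in the same mouse order. The WT groups did not overlap. It fell by 0.19 in WT (SE 0.04, adjusted p from limma 0.0122). The call held in all 20 fits without 1 library and was lost under median-of-ratios scaling, with -0.09 and an adjusted p of 0.3002, and under upper-quartile scaling, with -0.08 and 0.421. In iKO it was 17.72, 16.49, 17.57, 17.18 and 17.33 FPKM on HFD, against 18.46, 19.89, 17.31, 19.64 and 18.76 FPKM on chow, where RT6 lay within the range on HFD, with a log2 fold change of -0.12 (adjusted p 0.101). None of the lipid transfer genes Atg2a and Atg2b or of the 4 ATG4 protease genes was called for the diet.

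Of the 6 conjugation genes, Atg16l1, which anchors the conjugation complex to the membrane, was called, averaged over both genotypes. It averaged 9.97 FPKM ± 0.626 in iKO on HFD, 9.11 ± 0.381 in WT on HFD, 10.3 ± 0.487 in iKO on chow and 10.4 ± 0.793 in WT on chow (SD, n = 5 each). It fell by 0.11 (SE 0.04, adjusted p from limma 0.0457). By mouse it was 9.93, 8.98, 10.02, 10.20 and 10.70 FPKM in iKO on HFD, against 10.61, 10.75, 9.5, 10.39 and 10.27 FPKM in iKO on chow. It was 9.08, 9.07, 9.19, 8.56 and 9.63 FPKM in WT on HFD, against 9.38, 10.48, 11.31, 9.87 and 11 FPKM in WT on chow. Both genotypes overlapped between the diets. The call held in 6 of the 20 fits without 1 library, those without RT1, RT6, RT8, RT17, RT19 or RT20. Atg3, Atg5, Atg7, Atg10 and Atg12 were all below 0 in the fit, and none passed the test.

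Gabarap (chromosome 11, 69991143 to 69994951) was the gene of the family that fell in both genotypes. In iKO it was 99.7, 98.4, 106.0, 112.3 and 102.7 FPKM on HFD in RT11, RT13, RT15, RT17 and RT20, against 124.4, 125.6, 116.0, 117.1 and 110.5 FPKM on chow in RT2, RT4, RT6, RT7 and RT9. The iKO groups overlapped only in RT17, which was above RT9. In WT it was 102.0, 100.0, 98.4, 98.7 and 110.1 FPKM on HFD, against 125.4, 120.4, 110.9, 112.6 and 122.1 FPKM on chow, with no overlap. It fell by 0.19 in iKO (SE 0.05, adjusted p from limma 0.0141) and by 0.21 in WT (SE 0.05, adjusted p 0.00987). Both calls held in every fit without 1 library and were lost under both rescalings. Under median-of-ratios scaling the log2 fold change was -0.10 in iKO (adjusted p 0.287) and -0.11 in WT (adjusted p 0.295).

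Gabarapl2 in iKO was 40.7, 42.2, 41.2, 45.5 and 42.6 FPKM on HFD, against 48.2, 48.8, 48.5, 46.9 and 49.6 FPKM on chow. All iKO mice on HFD lay below all iKO mice on chow, and the gene fell by 0.19 (SE 0.05, adjusted p from limma 0.0206), a call lost without RT11 (adjusted p 0.0574) and under both rescalings (-0.10 with an adjusted p of 0.359 for median-of-ratios). In WT it was 45.70, 41.73, 43.01, 40.49 and 43.24 FPKM on HFD, against 51.88, 43.87, 46.61, 42.20 and 42.88 FPKM on chow, where RT1 stood highest, and it was not called.

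Map1lc3b fell by 0.11 averaged over both genotypes (SE 0.03, adjusted p 0.0196), to 85.9 FPKM ± 2.26 in iKO and 84.9 ± 5.54 in WT on HFD, against 95.7 ± 7.26 in iKO and 89.4 ± 1.87 in WT on chow. Its values by mouse were 85.49, 83.23, 85.35, 85.90 and 89.49 FPKM in iKO on HFD, against 107.30, 96.38, 89.42, 95.77 and 89.65 FPKM in iKO on chow. They were 93.39, 78.41, 83.89, 82.52 and 86.28 FPKM in WT on HFD, against 91.51, 90.81, 89.43, 86.94 and 88.15 FPKM in WT on chow. In iKO the groups overlapped through RT20, just above RT6, and in WT through RT12, the highest of all WT mice. Without RT1 and RT4 the adjusted p of Map1lc3b was 0.0541.

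Unlike Gabarap, Gabarapl2 and Map1lc3b, the genes Map1lc3a and Gabarapl1 were not called for the diet. Map1lc3a averaged 334 FPKM ± 25.6 in iKO on HFD, 343 ± 20.7 in WT on HFD, 332 ± 25.9 in iKO on chow and 324 ± 11.3 in WT on chow (SD, n = 5 each). Its log2 fold change for the diet averaged over both genotypes was 0.04 (SE 0.04, adjusted p from limma 0.428). Gabarapl1 had -0.03 (SE 0.06, adjusted p 0.695), made up of 0.12 in iKO and -0.19 in WT, neither of which passed the test.

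Ctsl, a cysteine protease of the lysosome (chromosome 13, 64359337 to 64370890), fell on HFD in both genotypes. In iKO it was 60.5, 69.9, 69.0, 71.9 and 58.9 FPKM on HFD, against 89.1, 90.3, 67.9, 72.0 and 70.8 FPKM on chow, in the mouse order used for Gabarap. RT2 and RT4 stood far above the other iKO mice on chow, whose values overlapped with those on HFD. In WT it was 60.0, 59.0, 55.8, 63.6 and 58.0 FPKM on HFD, against 74.0, 70.6, 70.3, 72.7 and 68.5 FPKM on chow, with no overlap. It fell by 0.23 in iKO (SE 0.07, adjusted p from limma 0.0442) and by 0.26 in WT (SE 0.07, adjusted p 0.0297).

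The call of Ctsl in iKO held in 8 of the 20 fits without 1 library, those without RT6, RT7, RT9, RT14, RT16, RT17, RT18 or RT19. Without RT4 and RT1 together its adjusted p was 0.151. In WT the call held in 13 of 20 fits and was lost without RT1, RT3, RT8, RT12, RT14, RT16 or RT19 (adjusted p up to 0.0698). Both calls were lost under both rescalings, with -0.14 in iKO (adjusted p 0.233) and -0.16 in WT (adjusted p 0.218) for median-of-ratios. Averaged over both genotypes Ctsl fell by 0.25 (SE 0.05, adjusted p from limma 0.00152) and held in all 20. Exons of Ctsl share 1742 bases with Gm47123 on the opposite strand. Since the strand setting of the counting is not given in the sources used here, reads of the pair cannot be told apart. Ctsl also shares 395 bases with Gm49230 on the same strand, where strand would not separate reads. No FPKM is at hand for Gm47123 or Gm49230. On the same strand Atg9a shares 1832 bases with Gm29253, at 0 to 0.13 FPKM, and Ctsd 808 with Gm49369, at 0 to 0.14 FPKM. Gabarapl1 shares 570 with 1700101I11Rik on the opposite strand, at 0.48 to 1.41 FPKM. Lamp1 fell by 0.12 averaged over both genotypes (SE 0.03, adjusted p 0.0133, and 0.0521 without RT1 and RT4). Ctsd, Ctsb, Lamp2, Mcoln1 and Tfeb did not pass the test for the diet. Tfeb averaged 8.49 FPKM ± 0.497 in iKO on HFD, 7.77 ± 0.507 in WT on HFD, 9.16 ± 1.33 in iKO on chow and 8.76 ± 0.828 in WT on chow (SD, n = 5 each).

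**Figure D4:**
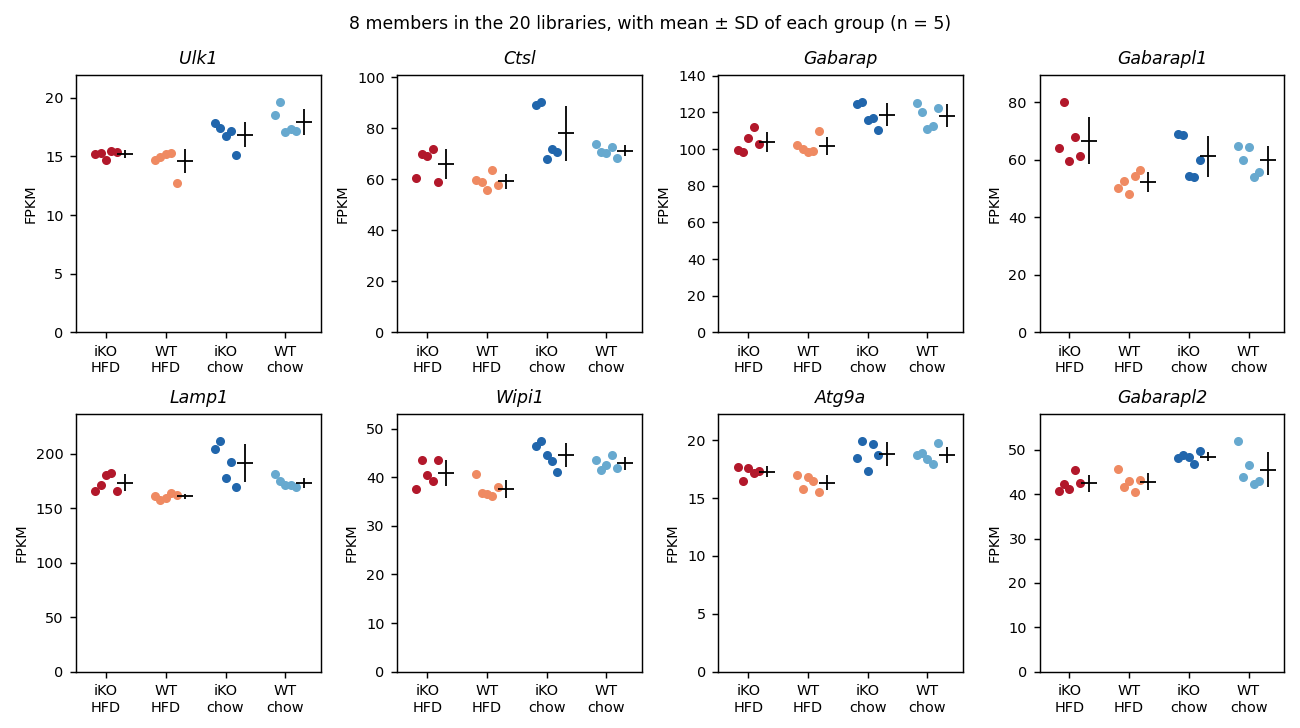
FPKM in each of the 20 libraries for the 7 genes Ulk1, Ctsl, Gabarap, Lamp1, Wipi1, Atg9a and Gabarapl2, called in 1 or more comparisons, and for Gabarapl1, with the mean and SD of each group of 5 mice beside the points. For Ulk1 all mice on HFD lie below 16 FPKM and 9 of 10 on chow above it, while Gabarapl1 separates iKO from WT on HFD.

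The diet calls depended on the scaling of the libraries. With FPKM as deposited the median of all genes lay at -0.079 for HFD against chow, a shift that median-of-ratios scaling removes. It left 3 of the 38 genes called for the diet averaged over both genotypes, where there were 10 as deposited. Ulk1 still fell, by 0.12 (adjusted p from limma 0.0267), and so did Ctsl, by 0.15 (adjusted p 0.0308). Atg14 rose by 0.14 (adjusted p 0.0278) and Map1lc3a, also at 0.14, missed the threshold with 0.0510. Upper-quartile scaling called the same genes, Ulk1, Ctsl and Atg14. Over all genes the split of the diet calls was 326 higher and 2973 lower as deposited, and 689 higher and 620 lower under median-of-ratios scaling. For iKO the split of all genes was 211 higher and 1068 lower, against 328 and 232 under median-of-ratios scaling, and for WT 98 higher and 929 lower, against 178 and 149.

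Atg14 had 3.72, 3.99, 3.67, 3.40 and 4.01 FPKM in iKO on HFD, 3.53, 3.39, 3.46, 3.24 and 3.37 FPKM in WT on HFD, 3.25, 3.89, 2.97, 3.42 and 3.84 FPKM in iKO on chow, and 3.47, 3.21, 3.32, 3.29 and 3.11 FPKM in WT on chow. HFD and chow overlapped within each genotype, and each value was under 5 FPKM.

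**Figure D5:**
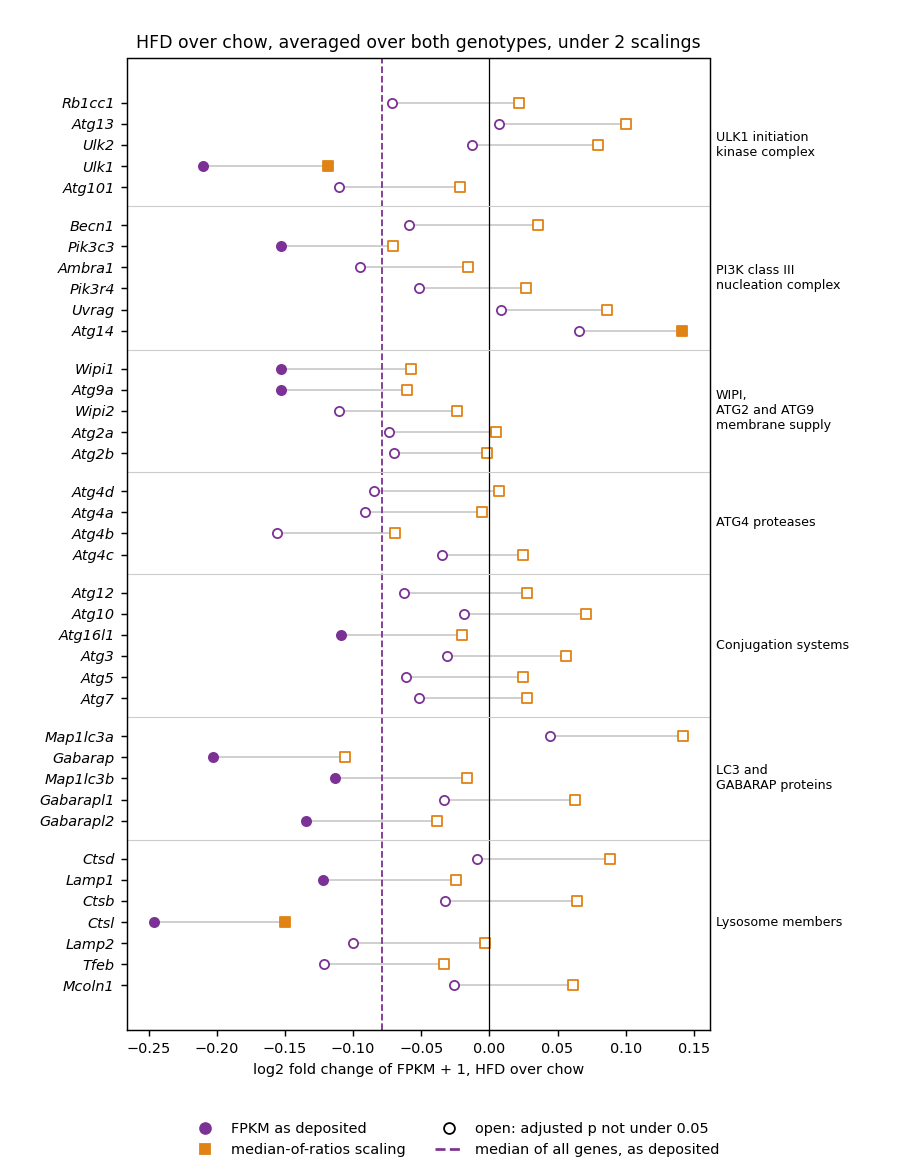
Log2 fold change of FPKM + 1, HFD over chow averaged over both genotypes, for the 38 genes with FPKM as deposited (circles) and after median-of-ratios scaling (squares), filled where the adjusted p was under 0.05. The dashed line is the median of all genes as deposited, -0.079, and rescaling moves every gene to the right, so that Ulk1 and Ctsl remain filled to the left of 0 and Atg14 becomes filled to the right.

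Several whole-library measures moved with the diet. Transcripts encoded in mitochondria took 34.5% to 35.9% of all FPKM in iKO on HFD and 34.2% to 36.5% in WT on HFD, against 30.1% to 33.9% in iKO on chow and 32.5% to 33.6% in WT on chow. The summed level of 7 cardiomyocyte markers lay between 23470 and 25301 FPKM in iKO on HFD and between 22283 and 27777 in WT on HFD, against 28018 to 32076 in iKO on chow and 28311 to 29339 in WT on chow. The 9 macrophage markers summed to 125 to 207 FPKM in iKO on HFD and 128 to 167 in WT on HFD, against 168 to 261 in iKO on chow and 170 to 195 in WT on chow. None of the 9 was at 0 in any library, and Lyz2 gave the largest part. The part of these differences in the falls of Ctsl, Lamp1 and the other genes was not tested. The mean log2 value of the 38 genes, centred gene by gene, was highest in RT4 at 0.16 and lowest in RT19 at -0.11, and the same mean over all genes tested was highest and lowest in the same libraries, at 0.15 and -0.12.

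The wider pathway was read from 8 further lists with 152 tested genes, grouped by role. For the diet averaged over both genotypes 44 of the 152 fell and 5 rose, 28.9% and 3.29% of them, against 23.3% lower and 2.55% higher of all genes tested, and their median was -0.083, against -0.079. Under median-of-ratios scaling 6 of the 152 fell and 15 rose, where 4.85% of all genes were lower and 5.39% higher. Between the genotypes averaged over both diets, 9 (5.92%) were higher in iKO and 1 (0.658%) was lower, against 4.01% and 1.16% of all genes tested. After rescaling these counts were 1 higher and 2 lower. The number of all genes called after rescaling is given in the last section without a split by direction, so these counts are not read further. On HFD alone none was called between the genotypes, against 0.102% of all genes higher and 0.0705% lower. Without RT1 and RT4, 2 were higher, a count not read further because the share of all genes in that fit is not given. On chow 1 was higher and 1 lower in iKO, 0.658% each, against 0.344% and 0.72% of all genes.

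Of 35 genes that control mTORC1 and AMPK, the kinases that hold back and start autophagy, 12 fell on HFD averaged over both genotypes and 2 rose, where 23.3% of all genes tested were lower and 2.55% higher. Under median-of-ratios scaling 3 fell and 5 rose. The Rag GTPase gene Rragd, which helps to place mTORC1 on the lysosome, averaged 24.3 FPKM ± 1.44 in iKO on HFD, 23.3 ± 1.54 in WT on HFD, 30.1 ± 0.844 in iKO on chow and 31.7 ± 1.251 in WT on chow (SD, n = 5 each). It fell by 0.30 in iKO (SE 0.05, adjusted p from limma 0.000406) and by 0.43 in WT (SE 0.05, adjusted p 1.38e-05), and both calls held under median-of-ratios scaling. Rragb, of the same family, fell by 0.72 in iKO and by 0.48 in WT at a low level, with 0.566 FPKM ± 0.126 in iKO on HFD, 0.554 ± 0.148 in WT on HFD, 1.60 ± 0.410 in iKO on chow and 1.17 ± 0.222 in WT on chow. Prkag2, a regulatory subunit of AMPK, rose by 0.33 averaged over both genotypes (SE 0.06, adjusted p from limma 0.000814, and 6.64e-05 after rescaling).

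Among 17 subunits of the V-ATPase, the proton pump that acidifies the lysosome, 8 fell on HFD and none rose as deposited, beside the same 23.3% and 2.55% of all genes tested, but under median-of-ratios scaling 1 fell and 1 rose. Atp6v0e2 fell under both scalings, by 0.44 as deposited (SE 0.06, adjusted p from limma 1.49e-05) and by 0.35 after rescaling. It averaged 4.49 FPKM ± 0.588 in iKO on HFD, 4.14 ± 0.437 in WT on HFD, 6.31 ± 0.765 in iKO on chow and 6.06 ± 0.387 in WT on chow (SD, n = 5 each). Atp6v1g1 was the gene of these lists that was higher in iKO on chow, by 0.17 (adjusted p 0.03), with 0.437 after rescaling and 0.107 without RT1 and RT4. Snap29, a SNARE protein of autophagosome fusion, fell on HFD by 0.24 averaged over both genotypes (adjusted p 0.000228) and also after rescaling (0.00858).

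Among lysosomal genes outside the machinery, Psap (prosaposin, the precursor of activators of sphingolipid breakdown) was called for genotype on chow and diet in iKO. It was also called for both averaged contrasts, but not between the genotypes on HFD or for the diet in WT. Psap was not called for the interaction, so a genotype effect that differs between the diets was not shown. It averaged 416 FPKM ± 7.41 in iKO on HFD, 441 ± 22.1 in WT on HFD, 359 ± 17.9 in iKO on chow and 420 ± 12.4 in WT on chow (SD, n = 5 each). On chow it fell by 0.23 in iKO against WT (SE 0.04, adjusted p from limma 0.00274, and 0.0013 after rescaling), and in iKO it rose on HFD against chow by 0.21 (SE 0.04, adjusted p 0.00161). Npc1, which exports cholesterol from the lysosome, rose on HFD by 0.28 averaged over both genotypes (SE 0.06, adjusted p 0.0037). Cd63, a tetraspanin of late endosomes, fell on HFD by 0.33 (SE 0.05, adjusted p 0.000102) and was higher in iKO by 0.29 averaged over both diets (adjusted p 0.00227).

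Of the 9 tested cargo receptor genes, Sqstm1, whose product p62 ties ubiquitin-marked cargo to LC3, was called for both factors. It averaged 156 FPKM ± 15.5 in iKO on HFD, 125 ± 5.21 in WT on HFD, 164 ± 18.2 in iKO on chow and 153 ± 5.33 in WT on chow (SD, n = 5 each). It was higher in iKO by 0.20 averaged over both diets (adjusted p from limma 0.0183) and fell on HFD by 0.18 averaged over both genotypes (adjusted p 0.00786). Under median-of-ratios scaling these adjusted p were 0.0867 and 0.220. Fam134b, a receptor for fragments of endoplasmic reticulum, rose on HFD in iKO by 0.24 (adjusted p 0.0162, and 0.0142 after rescaling), with 104 FPKM ± 6.74 on HFD and 88.0 ± 7.80 on chow (SD, n = 5 each). Without RT1 and RT4 its adjusted p was 0.0539.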

How the data were processed

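The authors deposited 1 table of FPKM per library, printed to 2 decimals. Bowtie2, RSEM, DESeq2 and the build mm9 appear, with no tool version, in the submitters' processing notes. The IDs of all 38 genes, taken without their version, were found in GENCODE M21, so their coordinates are on GRCm38 by ID. Which annotation the authors used is not known. Whether counting used the strand is not given in the sources used here. FPKM are not counts, so no count test was run. The steps between low FPKM of short genes gave estimates of depth, but only 40.4% to 71.4% of these values were whole to within 0.05 reads, so reads were not recovered.

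Tests used log2(FPKM + 1), a scale that understates changes of low genes. A gene was kept where 5 or more libraries had 0.5 FPKM or more, which left 12775 of 25052. limma 3.58.1 (R 4.3.3), with an intensity trend and robust moderation, was fitted to 4 group means, and each of 7 contrasts was adjusted over all genes tested. The SE beside a fold change is from limma, and the SD beside a mean FPKM is over 5 mice. Python 3.11.15 with pandas 2.3.3 made the tables. Tested on simulated data with 50 changed genes at each size among 12775, the fit recovered 94% of those changed 1.5-fold for the genotype on HFD, 86% for the genotype on chow, 86% for HFD against chow within iKO and 90% within WT. Of those changed 1.25-fold it recovered 42%, 30%, 40% and 40% in the same order, so that changes of this size were often missed. The changed genes were drawn from those with a mean log2(FPKM + 1) of 1 or more, and the noise was normal and independent between values. The simulation held no shift of all genes, so these shares do not cover lower genes or such a shift.

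The members, their roles and the wider lists were chosen with earlier results of these data known. Values per library are given for genes called in any contrast and for the gene with the smallest p where none was called. From the wider lists at most 4 called genes per list and contrast by smallest p were taken, of which the text names some. Atg14, Map1lc3a, Atg4c, Lamp2 and Ctsd were described for their values. The alternatives were a pseudocount of 0.1 FPKM, no filter, median-of-ratios and upper-quartile scaling, array quality weights, the groups of a comparison alone, leaving out RT1 and RT4, and leaving out each of the 20 libraries. Nothing in the labels pairs mice or names their litters, so litter could not be fitted. The p-values rest on the spread between mice within groups, pooled over the 4 groups and moderated by limma across genes.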

Additional observations from a re-analysis of the deposited data

Results flagged for a closer look

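In 9 of 152 groups of 5 mice, 1 mouse stood apart from the other 4, judged by its gap to the nearest value relative to the range of the group. Chance alone flags about 1 in 20 groups. Of these, 3 concern WT HFD library RT19, the lowest of its group for Ulk1 with 12.76 FPKM (the others 14.74 to 15.32), for Rb1cc1 with 16.02 FPKM (21.57 to 23.48) and for Atg2b with 1.78 FPKM (2.26 to 2.40). RT19 also had the lowest mean over all genes tested, -0.12 on the log2 scale, and the lowest array quality weight, 0.360.

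Atg4d stood low in RT14 of WT on HFD with 13.77 FPKM (the others 15.63 to 16.38) and in RT8 of WT on chow with 15.21 FPKM (16.87 to 17.30). Becn1 stood low in RT16 of WT on HFD with 23.9 FPKM (26.4 to 27.36). Ulk1 stood low in RT15 of iKO on HFD with 14.67 FPKM (15.23 to 15.45), and Ulk2 in RT5 of WT on chow with 17.05 FPKM (17.59 to 17.76). Atg13 stood high in RT4 of iKO on chow with 23.65 FPKM (17.92 to 19.50), and RT4 also had the highest mean over all genes tested, 0.15.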

How the results depend on the processing

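The number of the 38 genes called is given for each alternative that moved it by over 1.5 times. For the diet averaged over both genotypes, with 10 called, both rescalings left 3, and leaving out 1 library gave 9 to 11. In iKO, with 3 called for the diet, both rescalings left 0, and leaving out 1 library gave 1 (without RT11) to 6 (without RT6 or RT9). In WT, with 5 called, median-of-ratios scaling left 1 and upper-quartile scaling 0, array quality weights gave 8, and leaving out 1 library gave 3 (without RT8 or RT14) to 6. For the genotype on HFD, with 0 called, array quality weights gave 1, and leaving out 1 library 0 each time. Averaged over both diets, with 1 called, no filter, both rescalings and leaving out RT1 and RT4 gave 0, array quality weights 2, and leaving out 1 library 0 to 2. For the genotype on chow and the interaction every alternative run gave 0. No called gene of the machinery turned its sign under any alternative run. Why the calls moved was not tested, beyond that rescaling removes the shift of all genes. Over all genes, the 3299 diet calls averaged over both genotypes became 1309 and 1295 under the rescalings, and the 660 genotype calls averaged over both diets became 259 with no filter, 403 under median-of-ratios scaling and 337 without RT1 and RT4. No paired analysis was possible because no library number is shared between groups and the labels name no litters. Since reads per gene were not recovered, the counting error of low genes such as Atg4c is not given.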
